A study of Mus musculus with 6 samples.

Results

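The BRICHOS genes examined here are *Itm2a*, *Itm2b*, *Itm2c*, *Tnmd* (tenomodulin) and *Cnmd* (chondromodulin 1), 5 of the 53819 genes listed in the count table of healing mouse flexor tendons. They were taken by symbol as a protein family, and *Itm2a* was selected on its measured rise in DTR over WT tendons, that is, after depletion of *Scx*-lineage cells. The difference of *Itm2a* between the genotypes is therefore a description of why it was chosen and has no test here. The other 4 were listed for their family alone. All 5 had reads in each library, and 4 of the 5 passed the filter on low counts, *Cnmd* being the exception.

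RNA was sequenced from flexor digitorum longus (FDL) tendons of the hind paw, 1 tendon to a library and 3 mice to a genotype, at D28 post-surgery, in mice of both sexes that were 10 to 12 weeks old when operated on. DTR mice were Scx-Cre+; DTR F/+ and WT littermates were Scx-Cre-; DTR F/+. Both groups thus carried the floxed diphtheria toxin receptor allele, had the tendon cut and repaired, and received DT in 5 daily injections from D14 to D18. Scx-Cre is active from development on, so that the receptor marks all descendants of *Scx*-expressing cells, whatever they express in the adult, and how many cells were removed was not measured. By the titles the 28 days ran from depletion, but the methods count them from surgery, as is done here. Libraries held between 42744138 and 48854310 counts on genes. *Scx*, the gene whose lineage was targeted, was at 2201, 2703 and 3063 normalized counts in the 3 WT libraries and at 3475, 3406 and 3531 in the 3 DTR libraries, each in replicate order (TMM-normalized at the mean library size, as are all normalized counts here). *Col1a2* and *Fmod*, which tendon fibroblasts express, were abundant in both groups, at 747198 and 260607 mean normalized counts in WT tendons.

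BRICHOS proteins are type II membrane proteins whose BRICHOS domain lies on the outer or lumenal side and acts as a chaperone for an aggregation-prone stretch of the same chain. Several are cut by furin-like convertases, which releases a C-terminal piece, and ITM2B is further shed by ADAM10 and cleaved in the membrane by SPPL2 proteases. Tenomodulin is a classical marker of differentiated tendon cells and is lost when *Scx* is missing, chondromodulin 1 is its close relative in cartilage, and both have C-terminal domains that restrain vessel growth. ITM2A is known from cartilage and muscle differentiation and from activated T cells, ITM2B for the dementias caused by its mutations, and ITM2C as its neuronal relative.

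*Itm2a* and *Tnmd* both lie on the X chromosome but on opposite strands. In GENCODE vM21 (GRCm38), *Itm2a* spans X:107397099-107403376 on the minus strand with 6 exons, and *Tnmd* X:133850980-133865577 on the plus strand with 7. *Itm2b* (14:73362226-73385289) and *Cnmd* (14:79637690-79662170) are on the minus strand and *Itm2c* (1:85894281-85908675) on the plus strand. No other annotated gene overlaps any of the 5, so an unstated strand setting leaves no overlapping partner to confuse with them. The 250 bases before the RefSeq start of *Itm2a* and *Tnmd* (GRCm38.p6) are shown because these are the X-linked pair, the member that was selected and the tendon marker. Capitals mark CANNTG, the E-box that basic helix-loop-helix factors such as Scx bind, which reads the same on both strands.
Itm2a, chrX:107403361-107403610, minus strand: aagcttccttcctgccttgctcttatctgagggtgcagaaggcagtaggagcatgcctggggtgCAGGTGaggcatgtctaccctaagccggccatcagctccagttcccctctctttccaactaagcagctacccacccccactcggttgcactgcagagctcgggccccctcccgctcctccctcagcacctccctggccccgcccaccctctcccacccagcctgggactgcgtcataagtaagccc
Tnmd, chrX:133850758-133851007, plus strand: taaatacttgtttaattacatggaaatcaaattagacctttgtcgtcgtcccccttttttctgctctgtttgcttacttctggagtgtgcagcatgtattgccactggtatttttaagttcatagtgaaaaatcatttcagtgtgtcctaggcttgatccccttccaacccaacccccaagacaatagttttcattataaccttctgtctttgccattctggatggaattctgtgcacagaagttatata
The *Itm2a* window had 1 E-box (CAGGTG) and a GC content of 62.8%, and the *Tnmd* window had no E-box in these letters and a GC content of 38.4%. Of 32851 such windows in the RefSeq table, 66.2% held at least 1 E-box, and the median GC content was 52.4%. The windows of *Itm2b* (CAGCTG), *Itm2c* (CATGTG) and *Cnmd* (CATCTG) held 1 each.

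The members shared only short stretches of sequence. *Itm2b* and *Itm2c*, the most alike pair, were identical at 65.8% of aligned coding bases, and *Tnmd* and *Cnmd* at 61.5%. *Itm2a* stood about equally far from *Itm2b*, *Itm2c* and *Cnmd*, at 59.9% each, and was at 57.6% with *Tnmd*. This measure thus did not place *Itm2a* nearer to *Itm2b* or *Itm2c* than to *Cnmd*. The longest run that the coding sequences of any 2 members shared is shown for the nearest pair of each branch and for *Itm2a*, since it limits how many bases a read could match in both.
Tnmd and Cnmd: ctggtgggtggcccgcat
Itm2b and Itm2c: gacaagtgctacgt
Itm2a and Itm2c: atggtgaagatc
These runs are 18, 14 and 12 bases long, and across all 10 pairs of whole transcripts the longest shared run was 10 to 18 bases.

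For *Itm2a* the 3 WT libraries gave 6882, 6569.6 and 7347 normalized counts and the 3 DTR libraries 11520.3, 13682 and 11815 (here and below in the order of replicates 1, 2 and 3). Each DTR library was above each WT library, and the gap between the highest WT and the lowest DTR library was wider than the spread within either group. *Itm2a* was selected on this rise, so the gap and the ranks given below describe that choice and are not a test. WT tendons averaged 6933 ± 391 and DTR tendons 12339 ± 1172 (SD, n = 3 each), a ratio of 1.78. edgeR fitted this as 0.83 on the log2 scale, standard error 0.10. By this value *Itm2a* ranked 147 of the 14409 tested genes whose mean was at least 50 normalized counts, and 7 of the 1711 with a mean of at least 5000. Its neighbours in the first ranking were *Slc1a2* at 0.83, just above, and *Csf3r* at 0.83, just below. Their mean normalized counts were 182 and 955, against 9636 for *Itm2a*. In bulk tendon, more cells that express a gene and more RNA per cell cannot be told apart, which holds for each difference given here.

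*Itm2b* had the smallest spread of the tested members, with normalized counts of 67348, 61745 and 66854 across WT and of 61345, 63342 and 56952 across DTR libraries. The groups overlapped, with DTR replicate 2 above WT replicate 2. On the log2 scale DTR tendons were fitted at -0.11 relative to WT, with standard error 0.12 and a 95% interval of -0.39 to 0.17 (adjusted p = 0.757, edgeR's quasi-likelihood test over 17496 genes). Its coefficient of variation within groups was 5.06%, and of 54 genes of a like level 5.56% varied less.

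*Itm2c* gave normalized counts of 11649, 11397 and 12653 across WT and of 14026, 11762 and 11622 across DTR libraries. DTR replicate 1 was the highest library, and the other 2 DTR libraries lay inside the WT range. The log2 fold change was 0.07 (standard error 0.11, 95% interval -0.19 to 0.32, adjusted p = 0.851 from the same edgeR test). Without DTR replicate 1 the fitted value was -0.0294, on the other side of 0.

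*Tnmd*, the tendon member, gave normalized counts of 50499, 58598 and 76019.7 across WT and of 60343, 92191 and 75977 across DTR libraries. WT replicate 3 and DTR replicate 3 were nearly equal, and DTR replicate 1 was between WT replicates 2 and 3. *Tnmd* varied more than *Itm2a* within both groups, with a coefficient of variation of 21.1% in WT and 20.9% in DTR tendons, against 5.64% and 9.50% for *Itm2a*. *Itm2a* was selected on its rise, which a small spread favours, so it is no yardstick for *Tnmd*. Of 48 genes of a level like that of *Tnmd*, 62.5% varied less. The log2 fold change of *Tnmd* was 0.30 (standard error 0.21, 95% interval -0.19 to 0.80, adjusted p = 0.609 from the same edgeR test). It ranged from 0.15 without DTR replicate 2 to 0.48 without WT replicate 3. The upper end of the interval of *Tnmd* is near the fitted value of *Itm2a*, so these data do not show that *Tnmd* was unaltered.

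*Cnmd* had few reads in any library. Its read counts were 21, 6 and 10 across WT and 2, 3 and 1 across DTR libraries. Each DTR library was below each WT library, at levels where a few reads decide the order. Summed over libraries the counts were 37 in WT and 6 in DTR tendons, a ratio of DTR to WT of 0.163 with an exact 95% interval of 0.0563 to 0.390. This interval covers counting error only and not the spread between mice. *Cnmd* did not pass the filter on low counts and has no adjusted p beside the other members. With no filter, edgeR's quasi-likelihood test put it at -2.56 on the log2 scale with an adjusted p of 0.277. In 4 fits with 1 library left out it passed the filter, and the same test gave adjusted p-values of 0.183 to 0.835. It passed there only through the reads of WT replicates 1 and 3, in the higher group, so these 4 fits cannot support a difference.

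The edgeR test called 0 of the 3 members that were tested and not picked for their values, at an adjusted p under 0.05. The same test called 0% of all 17496 genes higher and 0% lower, so this count says little about the family. At an unadjusted p under 0.05, 0 of the 3 passed, where 5.52% of all genes passed higher and 5.45% lower. DESeq2 also called 0 of the 3, and 2.65% of the 17564 genes to which it gave an adjusted p (1.12% higher and 1.53% lower). Over all genes tested, 8.96% had each DTR library above each WT library and 7.85% had each below. Besides *Itm2a*, whose choice fixed its place, none of the tested members was without overlap. DESeq2 placed the 3 at about the same log2 fold changes as edgeR (-0.11 for *Itm2b*, 0.07 for *Itm2c* and 0.30 for *Tnmd*).

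**Figure D1:**
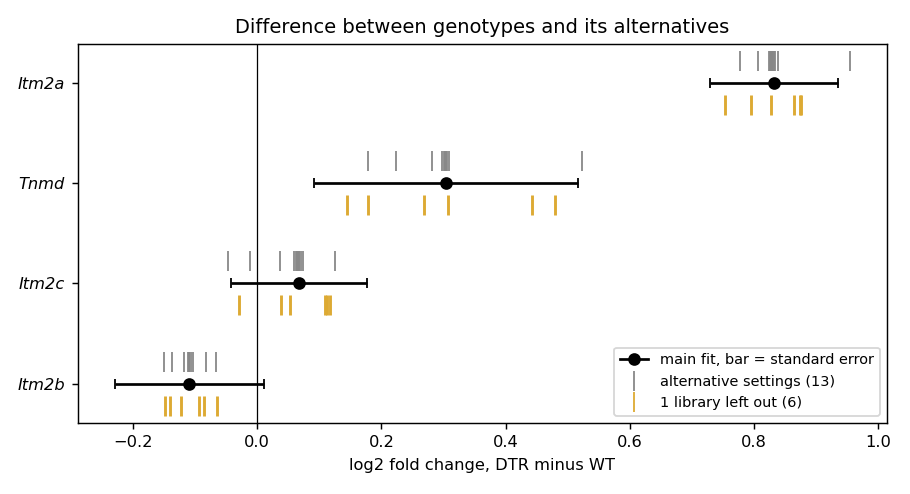
Log2 fold change (DTR minus WT) of the 4 members that passed the filter on low counts. Black points with bars are the main fit and its standard error, grey marks the 13 alternative settings and yellow marks the 6 fits with 1 library left out; the marks of *Itm2a*, selected on this difference, lie between 0.75 and 0.95, those of *Tnmd* between 0.15 and 0.52, and the marks of *Itm2c* fall on both sides of 0.

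The members covered a wide range of levels. Per kilobase of their longest coding transcript, WT tendons had 994 ± 210 RPKM (reads per kilobase of transcript, scaled to library size) for *Tnmd*, 792 ± 37.6 for *Itm2b*, 116 ± 6.49 for *Itm2c*, 86.6 ± 4.89 for *Itm2a* and 0.189 ± 0.122 for *Cnmd* (SD, n = 3 each). *Tnmd* and *Itm2b* overlapped in WT libraries, since WT replicate 1 had 813 RPKM of *Tnmd* and 817 of *Itm2b*. In DTR tendons the levels were 1227 ± 256, 735 ± 39.7, 122 ± 13.2, 154 ± 14.6 and 0.0302 ± 0.0140 in the same order of genes (SD, n = 3 each). There *Tnmd* was above *Itm2b* in each library.

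The order of *Itm2a* and *Itm2c* was turned between the genotypes. In WT tendons each library had more *Itm2c* than *Itm2a* per kilobase, and in DTR tendons each had more *Itm2a* than *Itm2c*. The same order was found with the union of all annotated exons as the length, where *Itm2c* had 104 in WT and 109 in DTR tendons. By reads, *Itm2a* had 59.1, 57.6 and 58.1 for each 100 of *Itm2c* across WT and 82.1, 116 and 102 across DTR libraries. This is the rise that selected *Itm2a*, seen against a relative with a similar level. Of the summed level of the 5 genes per kilobase, *Itm2a* held 4.38% ± 0.31 in WT and 6.91% ± 0.26 in DTR tendons (SD, n = 3 each), and *Tnmd* held 49.6% ± 4.99 and 54.5% ± 5.14.

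**Figure D2:**
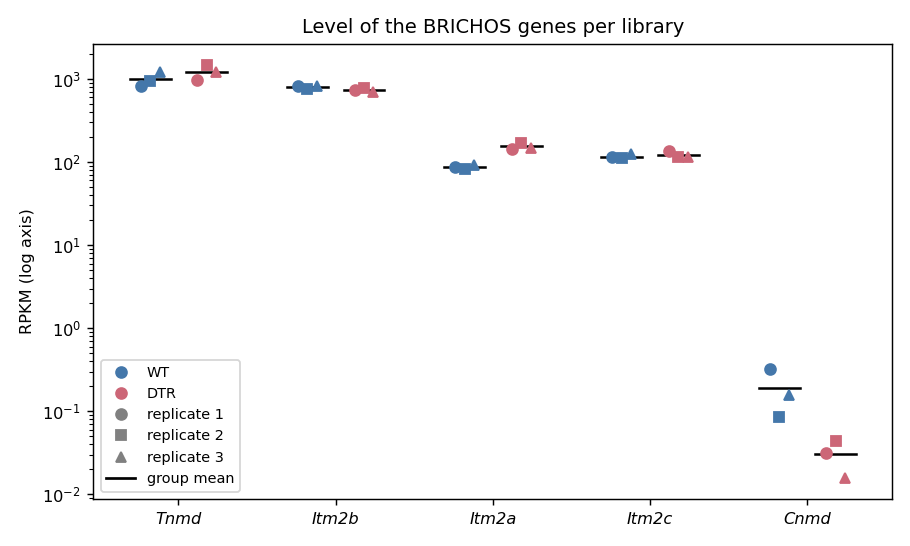
RPKM of each member in each library, on a log axis. Points are libraries, the symbol gives the replicate and bars are group means; *Tnmd* and *Itm2b* lie between 691 and 1485, *Itm2a* and *Itm2c* between 82.1 and 171, with *Itm2a* below *Itm2c* in WT and above it in DTR tendons, and *Cnmd* below 1.

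Among the 17104 tested genes with a known transcript length, *Tnmd* ranked 34 and *Itm2b* 48 by mean level per kilobase. *Itm2a* ranked 413 and *Itm2c* 419, so these 2 members also stood above 97.6% of the genes. Healing tendon at D28 held abundant transcripts of 4 members and next to none of the cartilage member.

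The further BRICHOS genes of the mouse were low. *Gkn3*, of the gastrokine group of stomach proteins, was the single one of 5 that passed the filter, at 44.6, 77.2 and 74.8 normalized counts across WT and 26.8, 49.7 and 8.22 across DTR libraries. DTR replicate 2 was above WT replicate 1, and the fitted difference was -1.21 on the log2 scale (adjusted p = 0.485 from edgeR's test). *Gkn1*, *Gkn2*, *Bricd5* and the lung surfactant gene *Sftpc* had at most 5 reads in any library.

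Proteases that cut BRICHOS proteins, or belong to the same groups, were all expressed. Neither edgeR nor DESeq2 called any of the 8, of which 5 were fitted higher and 3 lower, and their median log2 fold change was 0.06, against 0.01 over all genes tested. *Sppl2a*, an intramembrane protease, averaged 6136 ± 113 normalized counts among WT and 6579.7 ± 753 among DTR libraries (SD, n = 3 each). *Adam10*, the sheddase of ITM2B, had 5764 ± 257 and 6419 ± 607 (SD, n = 3 each), with each DTR library above each WT library and a fitted log2 difference of 0.16. Its edgeR adjusted p was 0.555. It was the 1 gene of the 8 without overlap between the groups, where 8.96% of all genes were higher without overlap. *Adam17*, a related sheddase, was at 0.22 (standard error 0.12) and *Furin* at 0.01 (standard error 0.19). The largest value of the 8 was that of the convertase *Pcsk5*, at 0.50 (edgeR adjusted p = 0.457, standard error 0.21), and it overlapped between the groups.

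*App*, whose protein is a partner of ITM2B and ITM2C, and its secretases were also not called in either test, 0 of 11 genes, and the median log2 fold change was -0.02, with 5 fitted higher and 6 lower. *App* itself averaged 32295 ± 530 normalized counts among WT and 39833 ± 6131 among DTR libraries (SD, n = 3 each), and each DTR library was above each WT library. Its fitted log2 difference was 0.30, standard error 0.14, with an edgeR adjusted p of 0.466. *Aplp2*, an *App* relative, was at -0.16, with each DTR library below each WT library. *Ncstn*, a subunit of gamma-secretase, was at 0.06. *Aph1b*, also a subunit, was at 0.24 and was the single gene of the 11 with an unadjusted p under 0.05 in edgeR's test. Of all genes, 5.52% passed this threshold higher and 5.45% lower. Without overlap between the groups, 2 of the 11 were higher and 3 lower, against 8.96% and 7.85% of all genes.

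**Figure D3:**
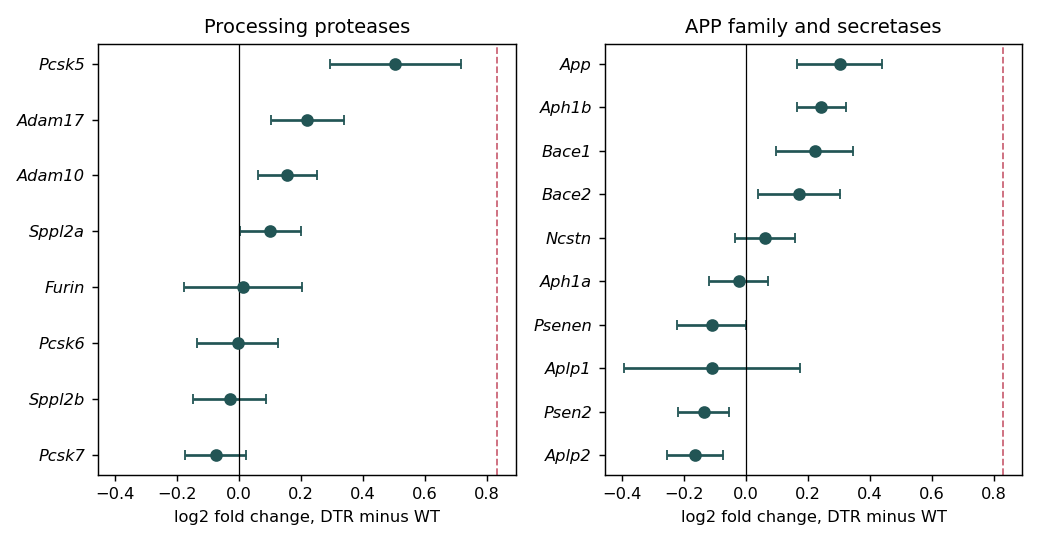
Log2 fold change (DTR minus WT) of the processing proteases (left) and of the *App* family with its secretases (right, 10 of the 11 genes). Points are fitted values and bars their standard errors. The solid line is 0 and the dashed line the value of *Itm2a* (0.83), which was selected on this difference. The genes drawn lie from -0.16 for *Aplp2* to 0.50 for *Pcsk5*.

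Transcripts of other tissues were unevenly spread over the libraries and are given beside the members because bulk tendon samples can carry them. A list of 20 skeletal muscle genes held 1.76% to 2.46% of the counts of the WT libraries and 0.304%, 2.21% and 0.575% in DTR replicates 1 to 3. DTR replicate 2, with a muscle share inside the WT range, had 13682 normalized counts of *Itm2a*, and DTR replicate 1, with the lowest share, had 11520.3. With the muscle level as a covariate its log2 fold change was 0.95, and that of *Tnmd* was 0.52 (adjusted p = 0.767 from edgeR's test). All 20 muscle genes were fitted lower, with a median log2 fold change of -1.19 and 0 called by either test. The most abundant, *Myh1*, *Atp2a1* and *Acta1*, were at -1.26, -1.69 and -0.54. None of the 20 was at 0 in any library. The part of muscle transcripts in the *Itm2a* and *Tnmd* levels was not tested beyond this covariate.

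A list of 15 keratinocyte genes held 0.362% and 0.225% of the counts in WT replicates 1 and 2, 0.0389% in DTR replicate 3 and 0.00446% to 0.0106% in the other 3 libraries. All 15 were fitted lower, with a median of -3.02. DESeq2 called 1 of them, *Sbsn*, at a log2 fold change of -1.51, where it called 1.53% of all genes lower. *Krt5*, *Krt14*, *Krt1*, *Krt15*, *Lor*, *Ivl*, *Flg* and *Dsg3* were at 0 in at least 1 library. WT replicate 3, which had few of these transcripts, had the highest *Itm2a* and *Tnmd* levels of the WT libraries. With the keratinocyte level as a covariate the log2 fold change was 0.78 for *Itm2a* and 0.18 for *Tnmd*, and the part of these transcripts was not tested further.

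*Xist*, the RNA of the inactive X chromosome, had 49303, 53828 and 54082 counts in WT replicate 2 and DTR replicates 2 and 3, and at most 4 in the other libraries, so mice of both sexes were in each group. Among the libraries with *Xist*, *Tnmd* was at 58598 normalized counts in WT replicate 2 and at 92191 and 75977 in DTR replicates 2 and 3. Among those without it, DTR replicate 1 (60343) lay between WT replicate 1 (50499) and WT replicate 3 (76019.7). With *Xist* as a covariate the log2 fold change of *Itm2a* was 0.83 and that of *Tnmd* 0.22, and the part of sex was not tested further.

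**Figure D4:**
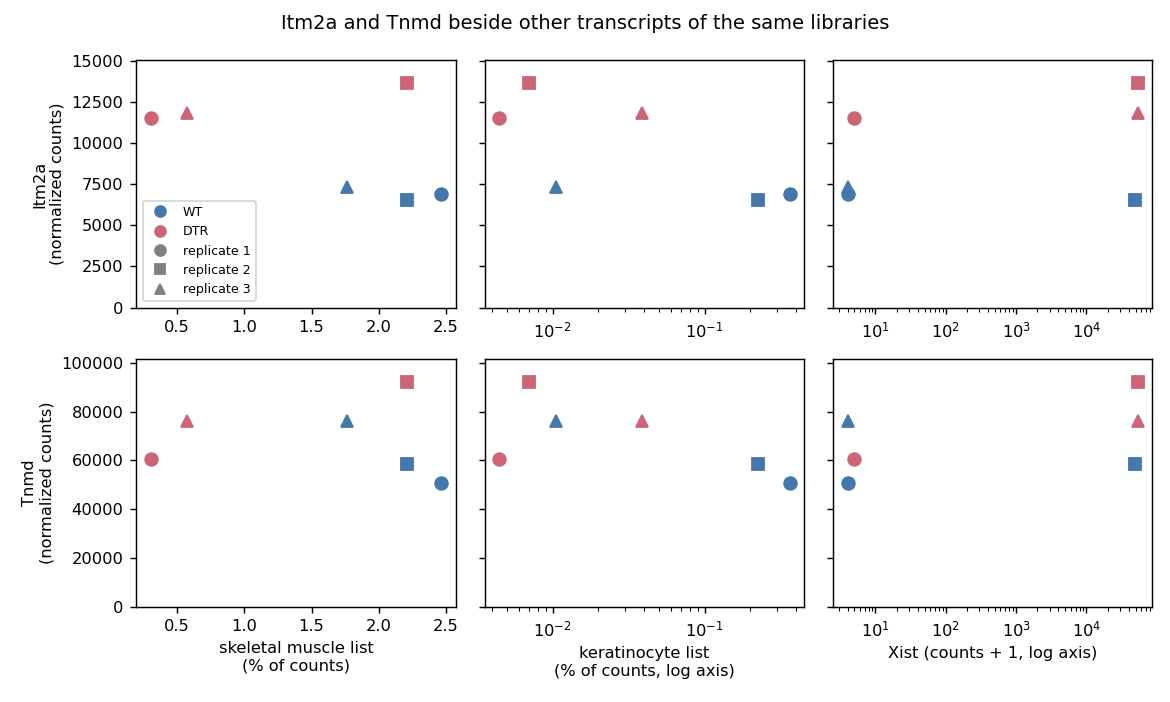
Normalized counts of *Itm2a* (top row) and *Tnmd* (bottom row) against the skeletal muscle share, the keratinocyte share and the *Xist* count of each library. Colours give the genotype and symbols the replicate; for *Itm2a*, which was selected on this difference, the DTR libraries lie at 11520.3 or above and the WT libraries at 7347 or below, and for *Tnmd* the genotypes overlap.

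Genes of T cells and vessels, where some members are known to act, were not called by either test. The 13 T cell genes, in whose cells *Itm2a* is induced on activation, held 0.00224% to 0.00484% of counts in WT and 0.00256% to 0.00397% in DTR tendons, with 0 called, 7 fitted higher and 6 lower, and a median log2 fold change of 0.09. The most abundant of them, *Cd4*, *Cd28* and *Cd2*, were at 0.14, -0.30 and -0.39. The 11 endothelial genes held 0.0732% to 0.0939% in WT and 0.0710% to 0.0857% in DTR tendons, with 0 called and a median of -0.14. *Pecam1* was at -0.15, *Cdh5* at -0.04 and *Vwf* at -0.05, and of the 11 genes 10 were fitted lower and 1 higher.

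Genes of muscle precursors and young fibres, where *Itm2a* is also known, were unevenly spread over the DTR libraries. These 12 genes held 0.00619% to 0.00856% of counts in WT and 0.00580%, 0.0263% and 0.0215% in DTR replicates 1 to 3, with 7 fitted higher and 5 lower and a median log2 fold change of 0.40. DESeq2 called *Myh3*, the embryonic myosin, at 2.03 and *Mymk*, a fusion factor, at 1.30, and edgeR called neither. Over all genes DESeq2 called 1.12% higher. The part of these 12 genes in the *Itm2a* levels was not tested.

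The tendon list, without *Tnmd*, held 4.84% to 5.62% of counts in WT and 5.35% to 6.74% in DTR tendons. Of its 15 genes, 12 were fitted higher, the median log2 fold change was 0.21, and DESeq2 called *Thbs4* (0.65) and *Egr2* (0.74), where edgeR called neither. Over all genes DESeq2 called 1.12% higher and 1.53% lower. Among the 15, 5 were higher without overlap between the groups and 0 lower, against 8.96% and 7.85% of all genes. In edgeR's test 4 of the 15 were higher at an unadjusted p under 0.05, against 5.52% of all genes. *Scx* was at 0.39 with a standard error of 0.12 (adjusted p = 0.371 from edgeR's test). *Mkx*, another tendon transcription factor, was at 0.15. The cartilage list, without *Cnmd*, held 0.0843% to 0.108% in WT and 0.0937% to 0.127% in DTR tendons, ranges that overlapped. DESeq2 called *Col9a1*, a cartilage collagen, lower at -1.36, with overlap between the groups. *Matn1*, which did not pass the filter, was at 0 in each WT library and at 0, 3 and 3 reads in the DTR libraries. Of the 12 cartilage genes tested, 4 were fitted higher and 8 lower, with a median of -0.15. Without overlap between the groups, 2 of the 12 were lower (*Sox6* at -0.64 and *Matn3* at -0.40) and 1 was higher (*Col11a1* at 0.39). Over all genes tested these shares were 7.85% lower and 8.96% higher.

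The 10 Schwann cell genes, set beside the neuronal relative *Itm2c*, held 0.0304% to 0.0648% of counts in WT and 0.0190% to 0.0405% in DTR tendons. Of these 3 were fitted higher and 7 lower, their median was -0.33, and DESeq2 called *Mbp* (-0.90), *Prx* (-0.94) and *Ncmap* (-1.20), all myelin genes, lower. Over all genes DESeq2 called 1.53% lower. Among the 10, 2 were lower without overlap between the groups and 0 higher, against 7.85% and 8.96% of all genes. The 10 macrophage genes held 0.316% to 0.391% in WT and 0.347% to 0.378% in DTR tendons, with 6 fitted higher and 4 lower, a median of 0.08 and 1 call by DESeq2, *Cd163*, at -1.52. In edgeR's test 0 genes of any list passed an adjusted p of 0.05.

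The genes with the profile most like that of *Itm2a* were sought among 14405 tested genes whose mean was at least 50 normalized counts. Each profile was centred on its mean over the 6 libraries, and likeness was the root mean square difference in log2 CPM. The nearest were the sulfatase gene *Arsj* (0.0971), the zinc finger gene *Zfp808* (0.102), the receptor gene *P2ry10b* (0.112), the small proteoglycan gene *Ogn* (0.120) and *Lgi3* (0.125). All 5 were higher in each DTR library than in each WT library, with log2 fold changes from 0.72 (*Lgi3*) to 0.96 (*Arsj*). Likeness to a gene picked for its rise makes that step common to them. In all 5, as in *Itm2a*, WT replicate 3 was the highest WT library, which the search for likeness also favours.

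The profiles most like that of *Tnmd* were those of *Npas3* (0.0706), *Sec22a* (0.0783), *Wee1* (0.0802), *Anxa3* (0.0808) and *Dusp19* (0.0825), on the same measure over 6 libraries. Like *Tnmd*, they were low in WT replicates 1 and 2 and DTR replicate 1 and highest in DTR replicate 2. The search for likeness makes this pattern common to them. Their log2 fold changes were from 0.25 (*Npas3* and *Wee1*) to 0.39 (*Dusp19*). None of the tendon list's genes was among the 5, and none of the 5 nearest to *Itm2a* was.

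**Figure D5:**
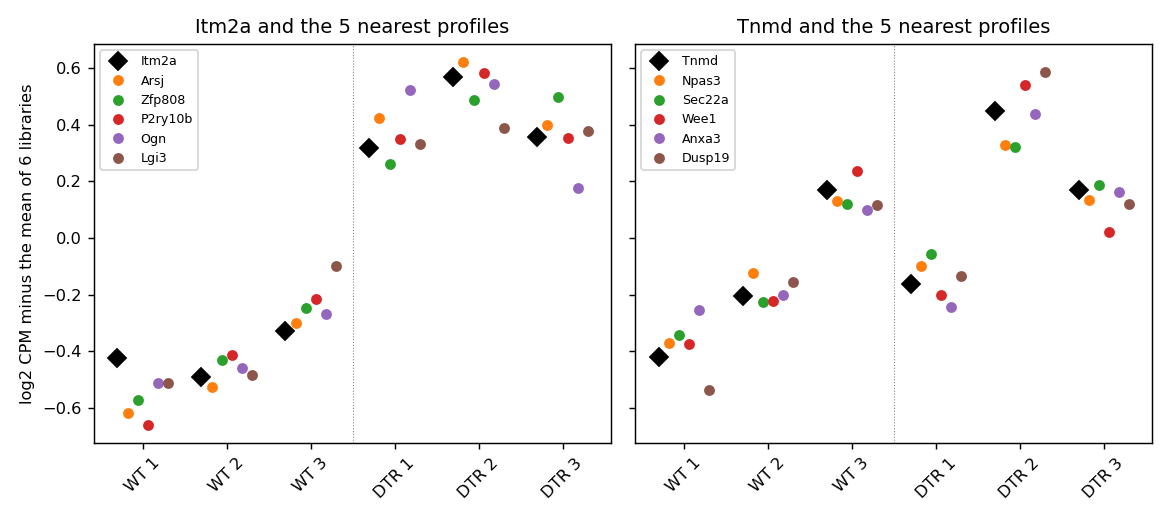
Centred log2 CPM of *Itm2a* (left) and *Tnmd* (right), as black diamonds, and of the 5 genes nearest to each, as coloured points, in the 6 libraries. For *Itm2a* the 3 WT libraries lie below 0 and the 3 DTR libraries above it, while for *Tnmd* WT replicate 3 (0.17) is as high as DTR replicate 3 (0.17) and DTR replicate 1 (-0.16) is close to WT replicate 2 (-0.21).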

How the data were processed

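Single-end reads were demultiplexed, cleaned with FastP and counted per gene with featureCounts by the authors, who deposited raw counts. The aligner, genome build, annotation and strand setting are not given in the sources used here. The labels also name a SMARTER kit beside the TruSeq Stranded mRNA kit. The deposited signal table of normalized counts was checked to be each count column divided by 1 DESeq2 size factor (0.973 to 1.06; DESeq2 1.22.1 per the labels).

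Here R 4.3.3, edgeR 4.0.16, limma 3.58.1 and DESeq2 1.42.0 were used. Of 53819 genes, 17496 passed filterByExpr. edgeR's robust quasi-likelihood test with TMM factors and the genotype as its single term yielded each log2 fold change with its standard error and Benjamini-Hochberg adjusted p. The tests were tested on simulated data. Replicates differed by 36.6 to 190 chi-square per degree of freedom, so none was a duplicate, and n = 3 mice, not depth, limits precision. Lengths and positions came from GENCODE vM21 by symbol, and 97.8% of tested genes matched.

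The members, the 12 gene lists and the alternatives were chosen with earlier results of these data known. Named genes were the members, in each list those called by edgeR or DESeq2 or otherwise the most abundant, and the 5 nearest profiles. Some list genes were added beside these after their values were seen. The alternatives were DESeq2, limma-voom, limma on log2(value + 1) of the authors' normalized table, 3 other normalizations, 2 other filters, a replicate block, muscle genes removed, 3 covariates and each library left out. A gene of the list of *App* and its secretases is counted with its list but not reported here.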

Additional observations from a re-analysis of the deposited data

How the results depend on the processing

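edgeR called 0 genes in all, DESeq2 466, edgeR with no filter on low counts 83, and 0 to 544 with 1 library left out, the 544 without DTR replicate 2. The cause was not tested. *Itm2b*, *Itm2c* and *Tnmd* were not called under any alternative (adjusted p 0.413 or above with 1 library left out, 0.555 or above otherwise, edgeR, limma or DESeq2). *Itm2a*, whose direction in these libraries was fixed by its selection, ranged from 0.78 to 0.95 (skeletal muscle covariate) over 13 settings and from 0.75 to 0.87 with 1 library left out. *Itm2c* changed sign with the muscle covariate (-0.0469), with the keratinocyte covariate (-0.0118) and without DTR replicate 1, in a range of -0.0294 to 0.117 over left-out libraries. *Itm2b* ranged from -0.15 to -0.0656 and *Tnmd* from 0.15 to 0.48 over left-out libraries. *Cnmd*, whose group means differ by -2.65 (log2), was at -2.64 in DESeq2, and at -2.91 to -2.27 in the 4 left-out fits whose filter it passed. In these fits *Cnmd* passed only through the reads of WT replicates 1 and 3. With the replicate number as a block edgeR called 1 gene. Same-numbered libraries did not deviate together (correlations of -0.19, -0.15 and -0.68), so the numbers were not used as pairs. With 3 libraries per group such correlations cannot decide whether mice were paired, and those of unlike number reached 0.56. With 3 mice per genotype the intervals of *Itm2b*, *Itm2c* and *Tnmd* leave room for differences in either direction, up to 0.80 on the log2 scale for *Tnmd*.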
